A study of Homo sapiens with 3 samples.

Results

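The APOBEC3 genes encode a family of 7 human cytidine deaminases, APOBEC3A, APOBEC3B, APOBEC3C, APOBEC3D, APOBEC3F, APOBEC3G and APOBEC3H, that lie side by side on chromosome 22. They were measured by 9 of the 41000 gene probes of a whole-genome expression array, and the members were taken by gene name, with all probes of each gene. The family was chosen on changes already known from these arrays, so every value is a description and no test was run. Of the 9 probes, 6 lie outside columns 1 to 9 of the array and cover 5 genes. The other 3 probes, for APOBEC3A, APOBEC3D and a second position of APOBEC3G, lie inside those columns and are given apart.

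The cells were YB5, a line cloned from SW48 colon cancer cells that carries 1 copy of a GFP reporter whose CMV promoter is methylated and silent. All groups therefore share this 1 clone and this reporter. Cells received decitabine at 25 nM, carboplatin at 20 μM or both drugs, in 4 doses from day 1 to day 4, and control cells received DMSO, the diluent. RNA was collected on day 6. A different carboplatin dose stands elsewhere in the study's text, and the dose of the sample labels is given here. Decitabine is a cytosine analog that traps DNA methyltransferases and lowers DNA methylation, and carboplatin is a platinum drug that forms adducts with DNA. Each of the 3 treatments was measured on 1 dual-colour array, with treated RNA in the green channel (Cy3) and control RNA in the red channel (Cy5). No dye swap was made, so dye bias of a probe enters its change on every array. There were no replicates, and precision is limited by having 1 array per treatment. The arrays are named by their labels as the decitabine-labelled, the carboplatin-labelled and the combination array (both drugs), and values in series follow that order. The error given is the SD of repeated spots of like brightness within an array, which does not cover differences between cultures. In RNA of whole cultures, fewer cells that express a gene and less RNA per cell cannot be told apart.

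APOBEC3 enzymes convert cytosine to uracil in single-stranded DNA, and they are known for restricting retroviruses and mobile elements. The uracil can be removed by uracil-DNA glycosylase and base excision repair, or it can be copied into a mutation. In tumors, APOBEC3A and APOBEC3B are the members most often named as sources of such mutations.

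The cluster is read on the array by probes of 60 bases, and members resemble one another, so the probe sequences bear on which gene a value belongs to. The 6 probes outside columns 1 to 9 are printed 5′ to 3′ as the scanner files give them, with the gene and the array column. Capitals mark the bases at which the APOBEC3C probe and the column 10 probe of APOBEC3F differ where they overlap.
APOBEC3C, column 62: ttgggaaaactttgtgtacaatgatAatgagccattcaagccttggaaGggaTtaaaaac
APOBEC3F, column 10: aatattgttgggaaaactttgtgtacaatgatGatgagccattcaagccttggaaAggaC
APOBEC3F, column 29: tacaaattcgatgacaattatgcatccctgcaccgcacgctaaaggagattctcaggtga
APOBEC3B, column 12: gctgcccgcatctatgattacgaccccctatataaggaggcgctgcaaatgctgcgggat
APOBEC3G, column 40: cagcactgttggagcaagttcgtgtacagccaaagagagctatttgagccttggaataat
APOBEC3H, column 28: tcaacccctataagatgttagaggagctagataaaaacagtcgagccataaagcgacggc

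The APOBEC3C probe and the column 10 probe of APOBEC3F overlap over 53 bases, of which 50 are identical. The 3 differences are A26G, G49A and T53C, with the APOBEC3C base first and positions counted from 1 at the 5′ end of the APOBEC3C probe. Each of this pair shares a run of 20 bases with 1 other gene probe on the array, namely the other of the pair. None of the other 7 APOBEC3 probes shares such a run with any probe. Probes were compared with probes and not with transcripts, so a run shared with the transcript of another member would be missed. The next closest pairing with APOBEC3C is the column 40 probe of APOBEC3G, with 34 of 52 bases identical. Signal of APOBEC3C transcripts on the column 10 probe of APOBEC3F, or the reverse, was not tested, so the APOBEC3F probe in column 29 is given beside it throughout. The files list the transcript of APOBEC3A among the targets of the APOBEC3B probe, and 1 transcript entry is shared by the APOBEC3D probe and the column 29 probe of APOBEC3F.

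The positions are those of the scanner files on hg19. The probes of the cluster run along chromosome 22 in the order of the letters. The APOBEC3A probe is at chr22:39359092-39359151 and the APOBEC3B probe at chr22:39387538-39387597. APOBEC3C is read at chr22:39414287-39414346, and the APOBEC3D probe spans chr22:39427939-39428222, a stretch longer than its own length. The 2 APOBEC3F probes are at chr22:39441492-39441551 (column 29) and chr22:39448588-39448647 (column 10). APOBEC3G is read at chr22:39477481-39477540 (column 40) and chr22:39479156-39479215 (column 5), and APOBEC3H at chr22:39497974-39498033. Exons and UTRs were not annotated here.

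Some facts of the arrays touch these values. The control channel was well above background, by the scanner software's own flag, for 69.0, 70.3 and 68.2% of spots on the 3 arrays. For treated RNA the shares were 65.8, 68.4 and 68.5%. The signals given per channel are mean pixel values before background correction and dye normalization. Their median over all spots was 297.3, 315.0 and 282.1 units for control RNA and 166.5, 163.5 and 167.3 for treated RNA, so a probe can have less raw signal in treated than in control RNA and still a positive log2 change after normalization. On the decitabine-labelled array, the first 9 columns, with 10.1% of the spots, had a median log2 change of 0.75, against −0.02 in the other columns. The study's supplement assigns 1 set of genes to a rise and 1 set to a fall with carboplatin, and it chose both on these arrays. Outside columns 1 to 9, 55 of 92 genes of the first set rose at least 1.5-fold on the decitabine-labelled array, 15 on the carboplatin-labelled array and 53 on the combination array. Of 52 genes of the second set, 40, 4 and 36 fell that far in the same order. These sets thus followed the decitabine-labelled array more than the carboplatin-labelled array. Whether the labels of these 2 arrays are exchanged is in question and was not tested, and every single-drug value is given under the deposited label.

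APOBEC3B, APOBEC3C, APOBEC3F and APOBEC3H were higher in treated than in control cells on all 3 arrays, and APOBEC3G on 2 of them, but APOBEC3B on the decitabine-labelled array turned to −0.01 with median centring and to −0.06 with the scanner software's processed signals. APOBEC3C was 4.29-fold higher on the decitabine-labelled array, 2.06-fold on the carboplatin-labelled array and 4.94-fold on the combination array. APOBEC3B was 1.29-, 1.51- and 1.97-fold higher in the same order. Under the processing used here APOBEC3H, dim in all control channels, measured 3.08-fold higher on the decitabine-labelled array and 1.43-fold on the carboplatin-labelled array. With both drugs it was at least 2.81-fold higher under that processing. APOBEC3G was at least 2.22-fold higher on the carboplatin-labelled array and at least 1.82-fold higher with both drugs. On the decitabine-labelled array it lay at a log2 change of 0.04, with neither channel well above background.

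Of the 5 APOBEC3 genes with a probe outside columns 1 to 9, 3 rose at least 1.5-fold on the decitabine-labelled array, where 4.84% of 17365 genes did so. On the carboplatin-labelled array 4 of 5 rose that far, against 2.76% of all genes. With both drugs 5 of 5 rose, against 7.31%. None of the 5 fell 1.5-fold on any array, where 5.03, 1.38 and 5.83% of all genes did in the same order. The median log2 change of the 5 genes was 1.62, 0.93 and 1.52, against −0.02, −0.00 and 0.00 over all genes. Here APOBEC3F was read by its column 10 probe, and with its column 29 probe the counts were 2, 3 and 5 of 5 and the medians 0.37, 0.60 and 1.18. The family was chosen on these contrasts, so nothing is read from the counts.

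**Figure D1:**
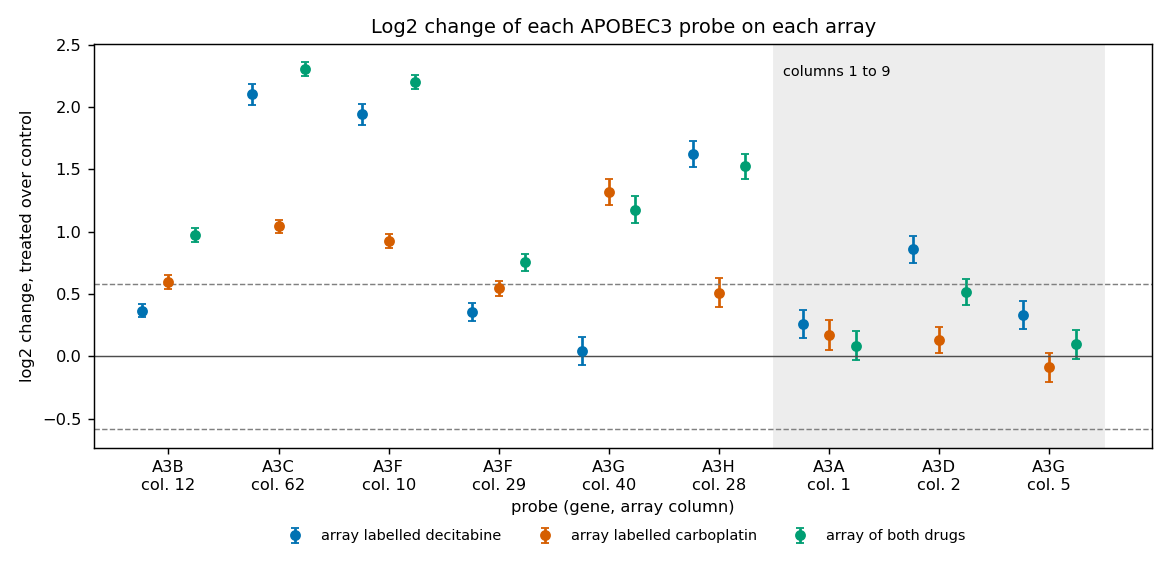
Log2 change, treated over control, of each APOBEC3 probe (horizontal axis, gene and array column) on the decitabine-labelled (blue), carboplatin-labelled (orange) and combination (green) arrays. Bars are the SD of repeated spots of like brightness, dashed lines mark 1.5-fold, and the grey zone holds the probes in columns 1 to 9. All bars come from spots outside columns 1 to 9, so in the grey zone they do not measure the local spread. APOBEC3C, the column 10 probe of APOBEC3F and APOBEC3H are lowest on the carboplatin-labelled array. The column 40 probe of APOBEC3G is lowest on the decitabine-labelled array at 0.04, where neither of its channels is well above background.

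APOBEC3C encodes an enzyme with 1 deaminase domain. Its treated channel had a mean signal of 1469 units on the decitabine-labelled array, 666.6 on the carboplatin-labelled array and 1630.0 on the combination array. The control channels had 745.4, 694.7 and 641.2 units. The control channels were thus alike while the treated channel of the carboplatin-labelled array was the dimmest of the treated channels. After normalization between arrays, the 3 control levels spanned 0.08 on the log2 scale. The log2 change was 2.10 ± 0.0828 (SD of repeated spots) on the decitabine-labelled array, 1.04 ± 0.0527 on the carboplatin-labelled array and 2.31 ± 0.0528 with both drugs. The change with both drugs was above that of the carboplatin-labelled array by 1.26 and above that of the decitabine-labelled array by 0.20. It lay below the sum of the single-drug changes, with a difference of −0.84.

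APOBEC3F encodes a protein with a pair of deaminase domains that can be packaged into virions of HIV lacking Vif. Its column 10 probe, the one close in sequence to the APOBEC3C probe, had treated signals of 960.6, 460.9 and 1117 units and control signals of 526.8, 509.1 and 464.6, array by array. The log2 changes were 1.94 ± 0.0837, 0.93 ± 0.0554 and 2.20 ± 0.0553. The control levels spanned 0.06 after normalization, and the order of the arrays was that of APOBEC3C.

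The column 29 probe of APOBEC3F had another order. Its treated signals were 213.6, 260.3 and 283.6 units and its control signals 325.1, 351.5 and 298.0. The log2 changes were 0.36 ± 0.0732, 0.55 ± 0.0590 and 0.76 ± 0.0687, which is 1.28-, 1.46- and 1.69-fold. The 2 probes of APOBEC3F thus disagree in size on every array, and also in which single-drug array was higher. They are assigned to different transcript entries, and whether they read the same transcripts was not tested. The decitabine-labelled array less the carboplatin-labelled array was 1.01 for the column 10 probe and −0.19 for the column 29 probe. For APOBEC3C that difference was 1.06. With median centring the column 29 probe was at 0.55 on the combination array, short of 1.5-fold. The count above used the column 10 probe, the brighter of the pair. With the mean of both probes, the counts of APOBEC3 genes past 1.5-fold were unchanged.

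Column 10 is the first column next to the strip with raised changes on the decitabine-labelled array. The median change of all probes there was 0.38 in column 9 and 0.01 in column 10. On the other 2 arrays the column 10 medians were −0.03 and −0.01.

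APOBEC3B encodes a nuclear enzyme with a pair of deaminase domains. The transcript of APOBEC3A is also listed among the targets of its probe, and signal from that transcript was not tested. The treated signals of the APOBEC3B probe were 364.2, 364.6 and 522.7 units and its control signals 596.1, 511.1 and 496.1 on the 3 arrays. The treated signal was alike on the single-drug arrays and higher with both drugs. The log2 changes were 0.37 ± 0.0537, 0.60 ± 0.0548 and 0.97 ± 0.0575. The control levels spanned 0.24 on the log2 scale, the widest of the 6 probes outside columns 1 to 9, and about as much as the carboplatin-labelled array exceeded the decitabine-labelled array (0.23). The change with both drugs exceeded the single-drug changes by 0.61 and 0.38 and differed from their sum by 0.01. On the carboplatin-labelled array APOBEC3B lay just inside the 1.5-fold threshold (a log2 change of 0.58). Among probes outside columns 1 to 9, the nearest values outside it were the 0.55 of the column 29 probe of APOBEC3F and the 0.51 of APOBEC3H, both on that array. The APOBEC3B value there was 0.33 with median centring in place of loess, 0.58 without background subtraction and 0.48 in the authors' processed table, all short of 1.5-fold. On the decitabine-labelled array its direction was not stable, with −0.01 under median centring and −0.06 with processed signals.

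**Figure D2:**
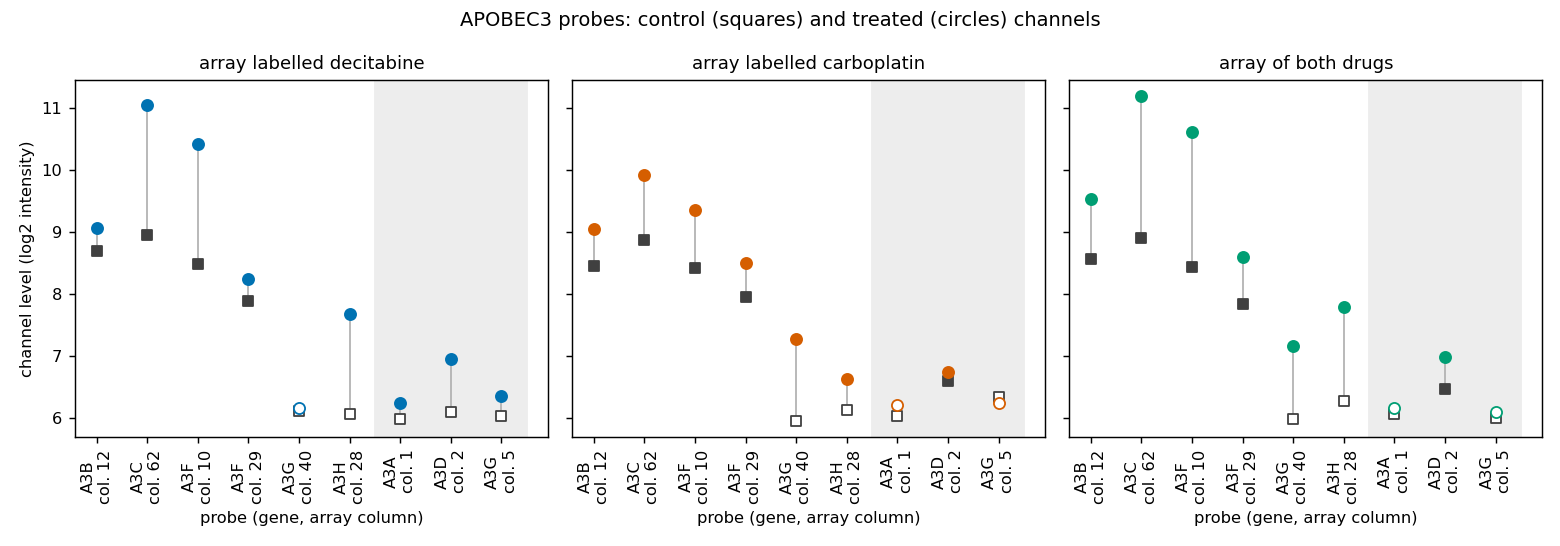
Channel level (log2 intensity after normalization within and between arrays) of each APOBEC3 probe on each array, with squares for control and circles for treated cells. Hollow symbols are channels not well above background, and the grey zone holds the probes in columns 1 to 9. For probes outside columns 1 to 9 the control squares of a probe span at most 0.24 across arrays, and those of APOBEC3G and APOBEC3H are hollow on all 3.

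APOBEC3H encodes an enzyme with 1 deaminase domain whose stability differs between human haplotypes. Its treated channel was well above background on all arrays, at 165.7, 80.6 and 175.0 units, and its control channel on none, at 82.7, 90.6 and 87.7 units. Treated signal was highest with both drugs and on the decitabine-labelled array. On the carboplatin-labelled array the local background was 53.5 units in the treated and 75.5 in the control channel, so the raw signals of the channels are not directly comparable. Because the control was not well above background, folds were taken against the higher of its own level and the lowest level well above background. Under the processing used here they were 3.08-, 1.43- and 2.81-fold. On the decitabine- and carboplatin-labelled arrays the control's own level was the higher, so this is the measured fold and no bound. On the combination array the control's own level was the lower, so the fold is a lower bound under that processing. The measured log2 changes were 1.62 ± 0.103, 0.51 ± 0.114 and 1.52 ± 0.103. The combination array was thus 0.10 below the decitabine-labelled array and 1.01 above the carboplatin-labelled array. With so dim a control, the value depended on the processing, from 1.61 to 5.73 on the decitabine-labelled array and from 0.43 to 2.05 on the carboplatin-labelled array. With both drugs it ran from 1.43 to 4.18, so none of the 3 folds is a bound across ways of processing.

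APOBEC3G, the member best known for restricting HIV that lacks Vif, had the opposite order of the single-drug arrays. At its column 40 probe the treated signal was 55.3 units on the decitabine-labelled array, 122.0 on the carboplatin-labelled array and 118.4 with both drugs. The control signals were 79.2, 78.1 and 74.0 units. The treated channel was well above background on the latter 2 arrays only, and the control channel on none. The measured log2 changes were 0.04 ± 0.113, 1.32 ± 0.104 and 1.18 ± 0.108, and the bounds were at least 2.22-fold on the carboplatin-labelled array and at least 1.82-fold with both drugs. The decitabine-labelled array less the carboplatin-labelled array was −1.28, whereas it was 1.11 for APOBEC3H. Other processing gave APOBEC3G 1.32 to 4.89 on the carboplatin-labelled array. On the decitabine-labelled array it gave −0.08 to 0.69, past 1.5-fold with the processed signals alone. The 3 control levels spanned 0.16 for APOBEC3G and 0.20 for APOBEC3H.

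**Figure D3:**
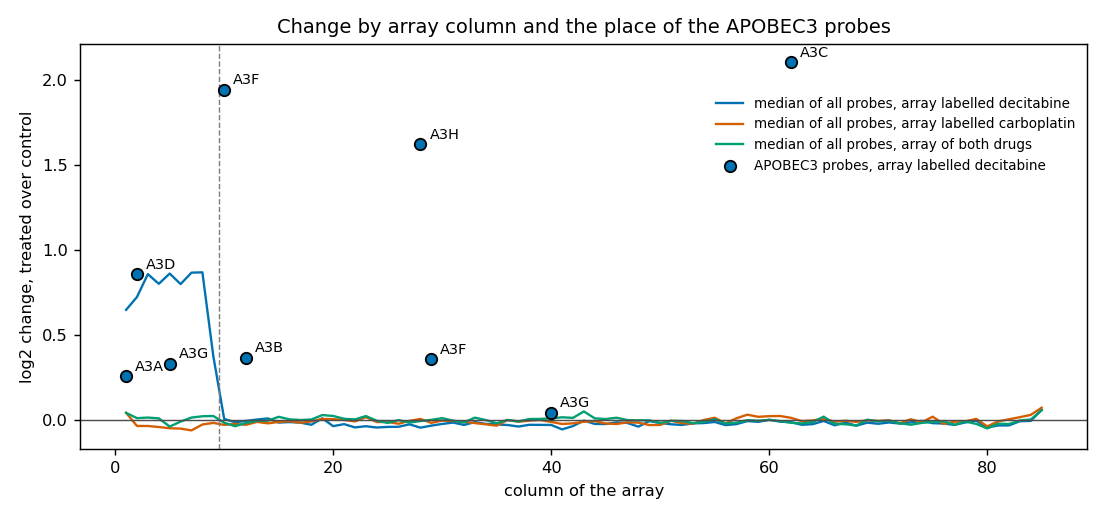
Median log2 change of all probes in each of the 85 array columns for the 3 arrays (lines), with the APOBEC3 probes of the decitabine-labelled array as points at their own columns. The vertical dashed line marks the end of column 9. The line of the decitabine-labelled array falls from 0.38 in column 9 to 0.01 in column 10, and the APOBEC3C point at column 62 lies far from that strip.

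The 3 probes in columns 1 to 9 stand apart. APOBEC3A, an interferon-inducible enzyme of myeloid cells, is read in column 1. Its treated signals were 86.2, 57.8 and 53.8 units and its control signals 71.7, 73.9 and 74.4. The treated channel was well above background on the decitabine-labelled array alone and the control channel on none. The log2 changes were 0.26, 0.17 and 0.09, below the 0.65 median of all probes of column 1 on the decitabine-labelled array. Under 6 of 9 other ways of processing the APOBEC3A value on that array passed 1.5-fold, up to 1.41.

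APOBEC3D, which has a pair of deaminase domains and also restricts retroviruses, is read in column 2. Its treated signals were 106.7, 83.1 and 100.9 units and its control signals 84.8, 119.7 and 109.5. The log2 changes were 0.86 ± 0.107, 0.13 ± 0.104 and 0.52 ± 0.105. These SDs come from spots outside columns 1 to 9 and do not measure the spread inside them. On the decitabine-labelled array the pooled SD of repeated spots was 0.230 over all columns, against 0.0776 outside columns 1 to 9. On the decitabine-labelled array the measured fold was 1.81, with the control channel not well above background. Other processing gave a log2 change of 0.73 to 1.51 on that array. With both drugs the APOBEC3D value passed 1.5-fold in 5 of 9 other ways of processing, up to 1.10. All probes of column 2 had a median of 0.72 on the decitabine-labelled array and 0.01 with both drugs. The second APOBEC3G probe, in column 5, had treated signals of 89.9, 63.7 and 60.8 units and control signals of 77.7, 88.9 and 74.4. Its log2 changes were 0.33, −0.08 and 0.10. Its treated channel was well above background on the decitabine-labelled array alone, where the column median was 0.86 and its own value passed 1.5-fold in 6 of 9 other ways of processing, up to 2.32. The 2 APOBEC3G probes thus disagree, since the treated channel of the column 40 probe was well above background on the carboplatin-labelled and combination arrays only. Both are assigned to different transcript entries, and whether they read the same transcripts was not tested. The part of the strip in the values of these 3 probes on the decitabine-labelled array was not tested.

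The changes were also set beside those of the genes around the cluster. Within 500 kb of the APOBEC3 probes, and outside columns 1 to 9, 45 probes of 33 other gene names were measured. Their median log2 changes were 0.15, 0.13 and 0.15 on the 3 arrays. At least 1.5-fold up were 2, 1 and 3 of these 45 probes, where 4.84, 2.76 and 7.31% of all genes rose that far. Down were 0, 1 and 0, where 5.03, 1.38 and 5.83% of all genes fell. NPTXR, a receptor for neuronal pentraxins, rose by 0.82 on the decitabine-labelled array and by 0.90 with both drugs, and its probe also lies in column 10. TOMM22, a subunit of the mitochondrial import complex, rose by 0.65 on the decitabine-labelled array. CBX6, a Polycomb protein that lies before APOBEC3A, had 2 probes at 0.68 and 0.60 with both drugs and 1 probe at 0.60 on the carboplatin-labelled array. KDELR3, a receptor that returns proteins to the endoplasmic reticulum, fell by 0.63 on the carboplatin-labelled array. Each of these changes was smaller in size than the smallest of APOBEC3C, the 1.04 of the carboplatin-labelled array. On the decitabine-labelled array NPTXR and TOMM22 exceeded APOBEC3B (0.37), the column 29 probe of APOBEC3F (0.36) and the column 40 probe of APOBEC3G (0.04). APOBEC3C, the column 10 probe of APOBEC3F and APOBEC3H lay above them. With both drugs NPTXR exceeded the column 29 probe of APOBEC3F (0.76) and lay below the other APOBEC3 probes outside columns 1 to 9.

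**Figure D4:**
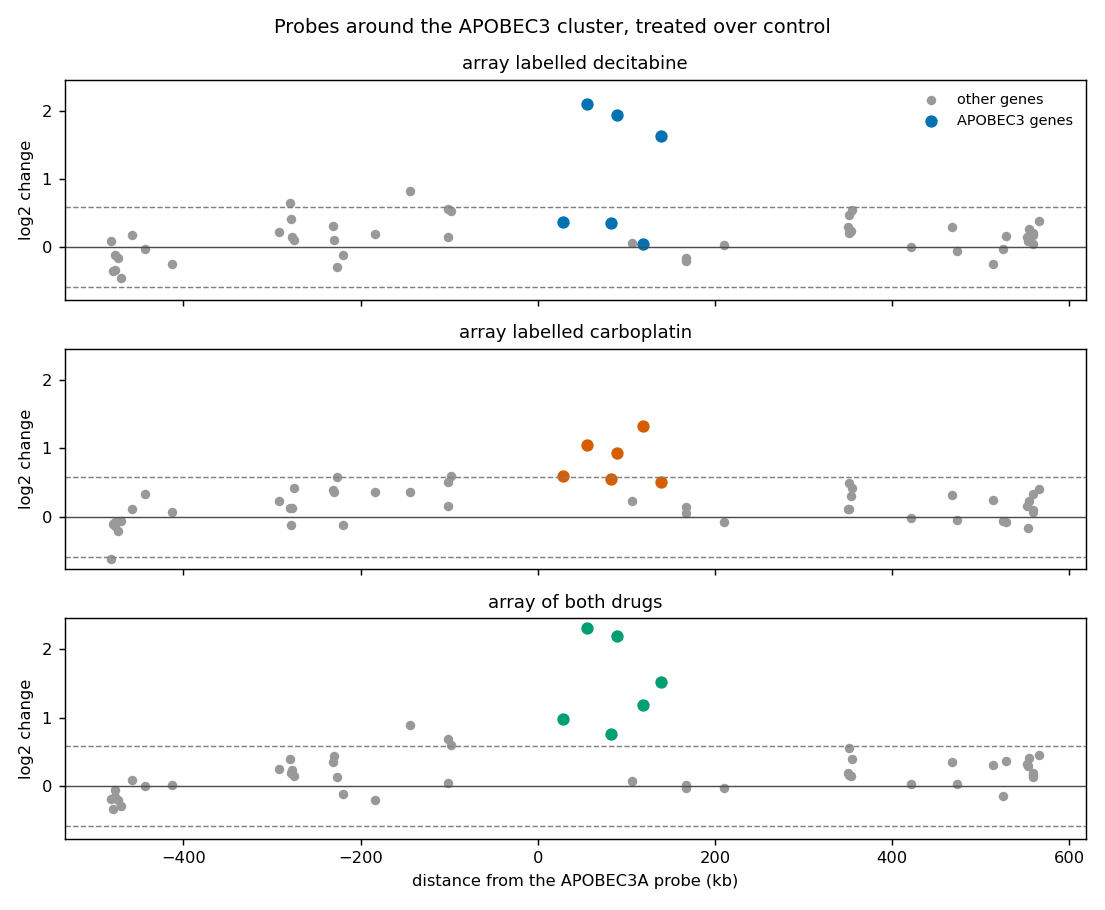
Log2 change of each probe within 500 kb of the APOBEC3 cluster, by distance from the APOBEC3A probe in kb, for the 3 arrays, with columns 1 to 9 left out. Coloured points are APOBEC3 probes, grey points are other genes, and dashed lines mark 1.5-fold. Grey points have a median of 0.15 or less on each array. Over the 3 arrays they run from −0.63 to 0.90 and APOBEC3 points from 0.04 to 2.31, so the ranges overlap.

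Genes with a pattern most like APOBEC3C were found by the Euclidean distance between the 3 log2 changes, over 12094 genes well above background in both channels on all arrays. The nearest was the column 10 probe of APOBEC3F, at a distance of 0.225, which shares most of its bases with the APOBEC3C probe. ACTA2, smooth muscle actin, followed at 0.235, with log2 changes of 2.12, 0.91 and 2.11. RIN1, a Ras effector, was at 0.239, PHLDA3, a p53-induced inhibitor of AKT signalling, at 0.261, and EPS8L2, a regulator of actin, at 0.342. APOBEC3B was at 2.23 and ranked 591.

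Other deaminases of the wider family were low. APOBEC1, which edits the apolipoprotein B transcript, and APOBEC2 were not well above background in any channel on any array. APOBEC4 was not analysed here.

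Genes that act on the product of the deaminases were read next. For each list, genes whose probe has a spot in columns 1 to 9 were left out, and the shares of all genes past 1.5-fold are those given for the family above. Of 15 uracil and abasic site repair genes 13 remained, of which 1 rose and 3 fell by at least 1.5-fold on the decitabine-labelled array, 1 rose and 0 fell on the carboplatin-labelled array, and 1 rose and 2 fell with both drugs. Their median log2 changes were −0.07, 0.13 and −0.03. DUT, which keeps dUTP out of DNA, was at −0.64, 0.31 and −0.50. FEN1, the flap endonuclease of long-patch repair, was at −0.18, 0.72 and −0.10. PARP2, a sensor of DNA breaks, was at −0.76, −0.31 and −0.65, and XRCC1, the scaffold of base excision repair, at −0.62, −0.05 and −0.70. SMUG1, a uracil-DNA glycosylase and outside the 4 genes named by the rule, was at 0.60 on the decitabine-labelled array and 0.63 with both drugs.

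Of 12 other factors that restrict retroviruses and mobile elements, 1, 1 and 2 rose and 0, 0 and 1 fell, with medians of −0.22, 0.07 and −0.13. MOV10, an RNA helicase, was at 0.51, 0.61 and 0.73. TRIM22, an interferon-inducible ligase named after its values were seen, was at 1.04 on the decitabine-labelled array and 1.78 with both drugs, with its control channel not well above background.

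Interferon can induce several APOBEC3 members, and 21 of 26 interferon response genes remained without columns 1 to 9. Of these, 0, 2 and 2 rose and 2, 1 and 2 fell on the 3 arrays. The medians were −0.12, −0.01 and −0.08. IFIT2, an interferon-induced antiviral protein, was at −0.78, −0.62 and −1.19, and IFIT1, of the same family, at −0.43, −0.22 and −0.73. IFITM1, a membrane restriction factor, was at −0.67, 1.66 and 0.41, and IRF7, a transcription factor of the pathway, at 0.49, 0.91 and 1.17. IRF1, a transcription factor named after its values were seen, was at 0.65 with both drugs. Among the 5 genes left out, ISG15, an interferon-induced ubiquitin-like protein also named after its values were seen, was at 2.40, 0.90 and 1.31 in column 8, where all probes had medians of 0.87, −0.02 and 0.02. The list thus held genes on both sides of the threshold.

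Of 13 genes of the NF-kB pathway 11 remained, of which 4 rose and 0 fell on the decitabine-labelled array and with both drugs, and none passed 1.5-fold on the carboplatin-labelled array. Noncanonical NF-kB signalling is known to induce APOBEC3B. The medians were 0.41, 0.10 and 0.46. RELB, a subunit of that arm, was at 1.40, 0.57 and 1.45, and MAP3K14, its kinase NIK, at 1.10, 0.21 and 1.16. NFKB2, the partner of RELB, was at 0.69, 0.26 and 0.78, and NFKBIE, an inhibitor, at 0.64, 0.45 and 0.68.

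Of 20 genes of E2F, the pocket proteins and the DREAM complex, which represses APOBEC3B outside the dividing state, 17 remained, of which 1, 0 and 1 rose and 2, 0 and 3 fell. The medians were −0.19, −0.01 and −0.26. E2F8, a repressor E2F, was at −1.26, −0.42 and −1.24, and LIN9, of the MuvB core, at −0.78, −0.17 and −0.92. RBL1, a pocket protein, was at −0.58, −0.30 and −0.62, and E2F7, also a repressor, at 0.60, 0.20 and 0.66.

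Of 8 direct targets of p53 outside columns 1 to 9, 8, 4 and 8 rose at least 1.5-fold and none fell that far. Each of the 8 had its lowest value on the carboplatin-labelled array, as did APOBEC3C and APOBEC3H. CDKN1A, the p21 inhibitor of cell division, was at 3.56, 1.31 and 3.39, and MDM2, the ligase that degrades p53, at 3.34, 0.63 and 3.25. BBC3, a promoter of cell death, was at 2.55, 0.69 and 2.11, and ZMAT3, an RNA-binding protein, at 2.22, 0.66 and 2.05. A common order over 3 arrays does not set these genes apart from others.

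Several APOBEC3 members are abundant in blood cells, so blood markers were read beside them. Of 13 such markers outside columns 1 to 9, 6, 7 and 6 were well above background in any channel. PTPRC, the pan-leukocyte marker CD45, and CD3D, MS4A1, NKG7 and FCGR3A, markers of T, B, natural killer and myeloid cells, were not well above background in any channel. CD68, a lysosomal protein abundant in macrophages, rose by 0.99 on the decitabine-labelled array and by 1.53 with both drugs, and its part in the APOBEC3 values was not tested. No blood marker passed 1.5-fold on the carboplatin-labelled array. Of 8 epithelial markers, 7, 6 and 6 were well above background. The keratins KRT8, KRT18 and KRT19 were so in both channels of all arrays. VIL1, a protein of the intestinal brush border, was at −0.88, 1.87 and 0.19.

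The promoter of APOBEC3H is shown because it is the member whose RefSeq promoter was at hand and because decitabine acts on CpG sites. It covers 250 bases before to 50 bases after the gene's start, on the forward strand of GRCh38.p14 at chr22:39096994-39097293, with CpG in capitals.
APOBEC3H promoter: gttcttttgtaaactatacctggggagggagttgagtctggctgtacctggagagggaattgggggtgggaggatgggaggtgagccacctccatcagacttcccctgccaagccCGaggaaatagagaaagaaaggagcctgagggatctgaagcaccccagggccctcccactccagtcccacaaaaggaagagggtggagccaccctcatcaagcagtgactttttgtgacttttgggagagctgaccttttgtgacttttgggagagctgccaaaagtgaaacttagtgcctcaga

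The window held 1 CpG, against a median of 14 over 35116 promoters of the same length, and 3851 promoters held no more than that. Its GC content was 53.3%, against a median of 58.7%. No match was found on either strand to TTTGAA or TTCGAA, the cell cycle homology region, which 16.4% of promoters hold, nor to the E2F motifs GGCGGGAA or TTTGGCGC (3.78%) or the TATA motif TATAAA (11.5%). The interferon-stimulated response element (3.57%) and the NF-kB motif (11.3%) were not matched either. This says only that these letters are not in this window. DNA methylation was not analysed here.

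**Figure D5:**
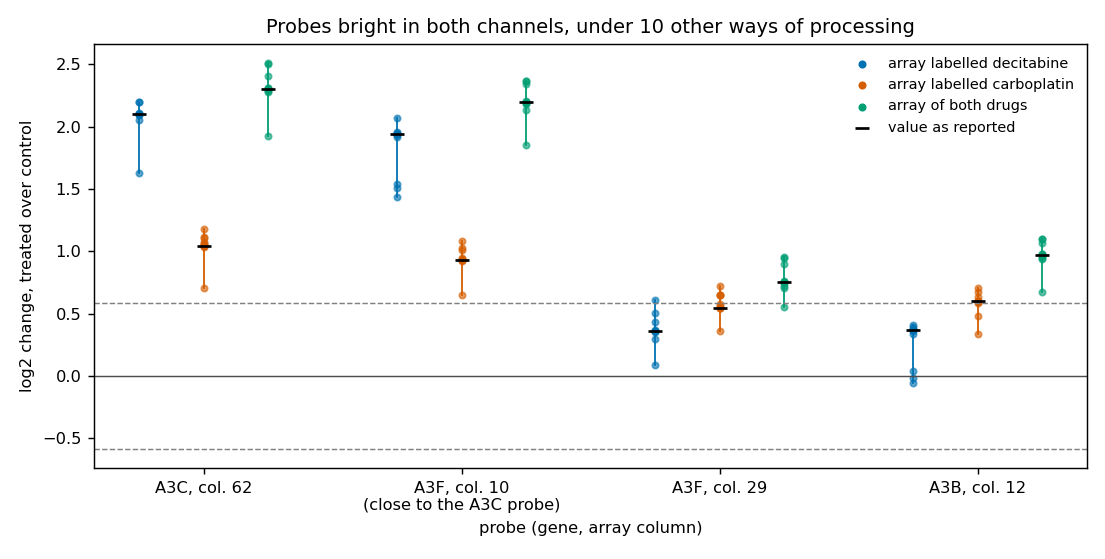
Log2 change of the 4 APOBEC3 probes that are well above background in both channels on all 3 arrays, as reported (black dashes) and under 10 other ways of processing (points, joined by a line from lowest to highest), coloured by array. Dashed lines mark 1.5-fold. APOBEC3C and the column 10 probe of APOBEC3F stay past 1.5-fold in all of them, from 0.70 to 2.51 for APOBEC3C, while the column 29 probe of APOBEC3F and APOBEC3B cross the line on at least 1 array.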

How the data were processed

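Values came from 3 dual-colour Agilent whole human genome arrays on 1 slide. The deposited scanner files give spot intensity in both channels, read by the authors with Agilent Feature Extraction 9.5.3.1 per the file headers. The submitters' processing notes name version 8.5.1.1 of that software, with limma and R 3.0.2. The log10 ratio (red over green) in the deposited files was made by that software from signals it had background subtracted and dye normalized, and for an alternative it was rescaled to log2 with its sign turned. The authors' processed values are a table with a loess-normalized log2 value for each probe, with its background step and direction not stated. It correlated with the values used here at r = 0.867, 0.838 and 0.936 across probes on the 3 arrays, so its direction was taken as treated over control. Its columns had medians of −0.01, 0 and −0.01.

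Background correction of the mean signals used normexp (offset 50) with loess within each array, in limma 3.58.1 (R 4.3.3, data.table version 1.17.8, jsonlite 2.0.0). Control spots and outlier spots (276, 111 and 89) were left out. Channel levels were scaled between arrays by Aquantile. Changes above 0 mean more signal in treated cells. The threshold was 1.5-fold and no p-value is given, since each treatment has 1 array. The SD of repeated spots came from the 50 probes nearest in brightness among 264 probes spotted 10 times, outside columns 1 to 9. Over all 264 probes the pooled SD outside those columns was 0.0776, 0.0747 and 0.0758. Over all columns it was 0.230, 0.0751 and 0.0769. Of 41000 probes, 29381 matched a RefSeq gene by accession (26386) or symbol (28895). A gene was represented by its brightest probe outside columns 1 to 9, or by its brightest probe where every probe has a spot in those columns. RefSeq also gave the promoter. The calculation was tested on simulated data.

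The members and gene lists were chosen with earlier results of these data known. Named were all 7 members, from each list up to 4 genes past 1.5-fold with the largest change and both channels well above background, all genes around the cluster past 1.5-fold, and the 5 genes nearest in pattern to the member with the largest change. Some genes that this rule names are not reported here. Alternatives were another background correction, signal, normalization, probe rule and filter, the values in the authors' table, outliers kept, and columns 1 to 9 left out.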

Additional observations from a re-analysis of the deposited data

How the results depend on the processing

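The counts of APOBEC3 genes past 1.5-fold stayed within 1.5 times the reported counts under all 11 alternatives, at 3 to 4 of 5 on the decitabine-labelled array, 3 to 5 on the carboplatin-labelled array and 5 with both drugs, and none fell that far. Reading APOBEC3F by its column 29 probe, chosen after seeing the data, gave 2, 3 and 5. No change past 1.5-fold reversed its sign. Median centring in place of loess, which moved the median of all genes to −0.22 and −0.14 on the decitabine- and carboplatin-labelled arrays, took APOBEC3B on the carboplatin-labelled array to 0.33 and the column 29 probe of APOBEC3F with both drugs to 0.55. Without background subtraction APOBEC3B on the carboplatin-labelled array was at 0.58, just under the threshold, and in the authors' table it was at 0.48. On the decitabine-labelled array APOBEC3B ranged from −0.06 (processed signals) to 0.41. The column 29 probe of APOBEC3F passed 1.5-fold on the carboplatin-labelled array with an offset of 10, the processed signals, the scanner's log ratio and the authors' table (0.65 to 0.72). With processed signals the column 10 probe was at 1.44 on the decitabine-labelled array. The values of genes with a dim control channel moved most. APOBEC3H on the carboplatin-labelled array ranged from 0.43 to 2.05, and on the decitabine-labelled array from 1.61 to 5.73. APOBEC3G on the carboplatin-labelled array ranged from 1.32 to 4.89. The higher values came from the processed signals and the scanner's log ratio, and the authors' table had 1.42 for APOBEC3G and 1.75 for APOBEC3H on those arrays. Of the recomputed probe changes, 139 moved by less than the SD of repeated spots and 117 by more. No paired analysis was possible because there is 1 array per treatment.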
